A study of Mus musculus with 16 samples.

Results

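The genes described here are 8 potassium channels of microglia, the macrophages that live in brain tissue: Kcnj12, Kcnj2, Kcna3, Kcnk6, Kcnk12, Kcnk13, Kcnn4 and Kcnma1. They were chosen by symbol out of 24015 rows of the deposited table, with the age difference of Kcnj12 already known, so their levels at the ages are given as a description with no test. RNA came from hippocampal microglia of mice aged 3 months (called young) or 20 months (called aged), with 6 samples per age. Perfused tissue was dounced, myelin was taken out with magnets, and live CD11b+ CD45lo cells were sorted; 16 libraries were sequenced from the 12 samples. No genetic change or treatment is named. All mice are labelled C57BL/6, except that the strain label of aged samples 5 and 6 ends in another digit. Whether each sample came from its own mouse is not stated, and a p-value here covers only the spread among the samples, which may be technical. The 8 samples with 1 library had 11.4 to 47.3 M recovered reads. Levels are normalized counts, the reads of a gene divided by a size factor of the sample.

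Potassium channels set the resting potential of a microglial cell and carry the potassium efflux that accompanies some inflammatory responses. Inward rectifiers of the Kir2 group, to which Kir2.1 (Kcnj2) and Kir2.2 (Kcnj12) belong, hold the membrane near the potassium equilibrium and are plugged from inside by polyamines when the cell depolarises. Tandem-pore channels give a steady leak: THIK-1 (Kcnk13) is the main leak channel of surveying microglia, THIK-2 (Kcnk12) is its close relative, and TWIK-2 (Kcnk6) is a potassium efflux channel of macrophages. Kv1.3 (Kcna3) opens on depolarisation and is known from activated microglia and T cells, while KCa3.1 (Kcnn4) and BK (Kcnma1) open with calcium.

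The sequences just before the annotated starts are shown for the 4 channels whose age groups did not overlap. RefSeq gave a start for 7 of the 8 channels (GRCm38.p6, the mm10 build). The windows hold the 250 bases before the start, 5′ to 3′ on the gene's strand. Capitals mark matches, on either strand, to GGGCGG (Sp1 box), GAGGAA (PU.1-type core), GGAAAA (NFAT-type core), TGANTCA (AP-1), TGACGT (CREB half-site), CACGTG (E-box) or the interferon element, GAAA boxes in tandem 2 bases apart; matches to different motifs may overlap. Kcnj12 is read from chr11:61065554-61065803, Kcna3 from chr3:107035912-107036161, Kcnk13 from chr12:99964249-99964498 and Kcnn4 from chr7:24370013-24370262, all on the plus strand.
Kcnj12: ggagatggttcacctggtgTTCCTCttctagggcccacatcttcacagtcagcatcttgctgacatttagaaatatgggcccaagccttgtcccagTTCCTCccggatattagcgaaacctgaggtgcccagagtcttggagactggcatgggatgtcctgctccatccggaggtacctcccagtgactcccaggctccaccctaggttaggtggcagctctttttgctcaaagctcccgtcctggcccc
Kcna3: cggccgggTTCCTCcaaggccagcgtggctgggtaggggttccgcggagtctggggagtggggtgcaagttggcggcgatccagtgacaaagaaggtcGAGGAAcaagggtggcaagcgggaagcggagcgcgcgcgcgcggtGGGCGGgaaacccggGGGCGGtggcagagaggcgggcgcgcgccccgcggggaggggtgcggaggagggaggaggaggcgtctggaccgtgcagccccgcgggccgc
Kcnk13: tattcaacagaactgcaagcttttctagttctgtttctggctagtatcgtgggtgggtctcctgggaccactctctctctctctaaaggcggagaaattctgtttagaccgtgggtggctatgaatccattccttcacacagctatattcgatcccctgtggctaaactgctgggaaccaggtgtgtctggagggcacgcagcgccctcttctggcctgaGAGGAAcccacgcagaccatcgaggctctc
Kcnn4: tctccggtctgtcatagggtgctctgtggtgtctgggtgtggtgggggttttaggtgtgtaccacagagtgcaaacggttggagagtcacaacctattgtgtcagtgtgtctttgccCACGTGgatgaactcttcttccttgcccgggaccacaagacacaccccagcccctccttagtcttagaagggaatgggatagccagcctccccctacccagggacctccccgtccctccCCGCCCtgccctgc

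The windows of Kcnj12 and Kcna3, the channels that stood higher in aged samples, each hold 2 PU.1-type cores. Of 32851 windows of this length, 23.3% hold 1 or more, and the share with 2 was not counted. The windows of Kcnj2 and Kcnk12, whose ages overlapped, also hold 2. PU.1 is a lineage factor of macrophages and microglia. Kcna3 also has 2 Sp1 boxes (32.7% of windows hold 1 or more) and Kcnj12 has 0. Kcnk13 has 1 PU.1-type core, and Kcnn4 has 1 E-box (6.02% of windows) and 1 Sp1 box. No interferon element was found in these windows or in those of Kcnj2, Kcnk12 and Kcnma1, against 2.98% of all windows. The bases differ in composition, with 74.4% G or C and 31 CpG pairs before Kcna3 against 56.0% and 4 before Kcnj12, where the median window has 52.4% and 6. A match describes these letters and is not a binding site.

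Kcnj12 lies on chromosome 11 at 61022564 to 61071131 in GENCODE M21 and overlaps no other annotated gene. Of its 3 annotated coding transcripts, 2 start at 61065804, the base after the window shown, and 1 starts at 61022564. The deposited values are sums per gene and do not say which start was used. Kcnj2 lies on the same chromosome, at 111066164 to 111076821. The other channels are at chr7:29221926-29232515 (Kcnk6, minus strand), chr17:87745801-87797994 (Kcnk12, minus), chr12:99964499-100062682 (Kcnk13, plus), chr7:24370263-24386690 (Kcnn4, plus) and chr14:23289431-24014491 (Kcnma1, minus). Kcnma1 is crossed by 4 other annotated genes and Kcnk13 by 1, all on the opposite strand and none with a row in the table; 4930519K11Rik shares exon bases with Kcnma1. The longest stretch that the coding sequences of Kcnj12 and Kcnj2 share letter for letter is 17 bases, bases 778 to 794 of the longest Kcnj12 coding sequence. For Kcnk12 and Kcnk13 it is 26 bases, bases 772 to 797 of Kcnk12. Both runs are shorter than reads of 150 bases. Only the longest coding sequences were compared, without untranslated exons, and sharing of counts between relatives was not tested.
Kcnj12 and Kcnj2: gctgtcttcatggtggt
Kcnk12 and Kcnk13: ggcttcggggacctggtgagcagcca

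Kcnj12 was the channel that differed most between the ages. Young samples ran from 86.7 to 118 normalized counts with a median of 100.004, and aged samples from 502 in aged 2 to 935 in aged 3 with a median of 806. Every aged sample stood above every young one, and the lowest aged sample was still far above the highest young sample. Means were 99.8 ± 10.4 and 765 ± 150 (SD, n = 6 each), a log2 fold change of 2.90 ± 0.14 (SE), or 7.49-fold. The depth behind these values was 38 to 177 reads in the 4 young samples with 1 library and 499 to 969 reads in the 4 such aged samples.

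**Figure D1:**
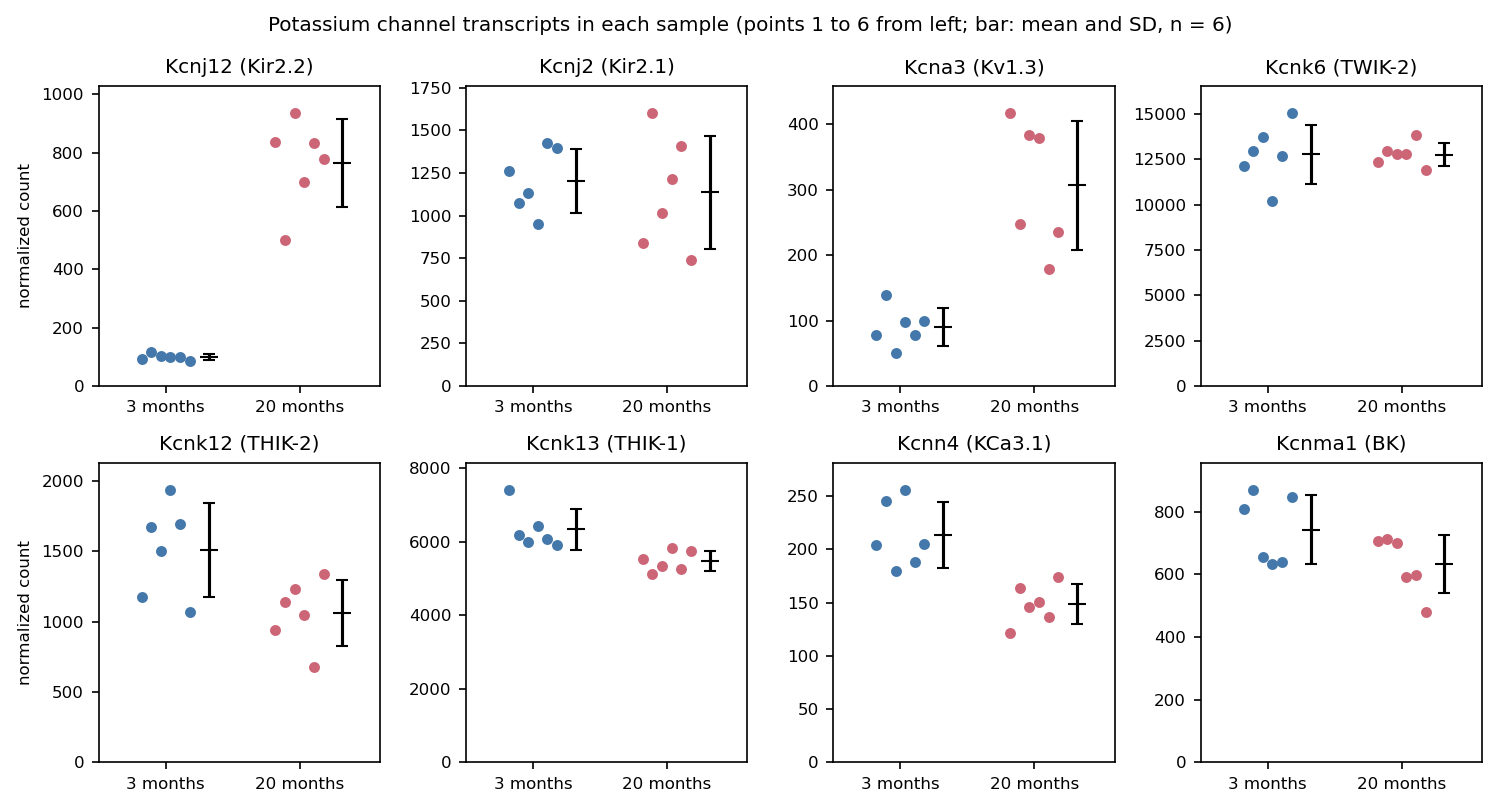
Normalized counts (vertical axes, from 0) of the 8 channels in young samples at 3 months (blue) and aged samples at 20 months (red), 1 point per sample in the order 1 to 6, with mean and SD in black. The ages do not overlap for Kcnj12, Kcna3, Kcnk13 and Kcnn4, and overlap for the other 4.

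Kcnj2, the Kir2 gene with the higher level in young microglia, overlapped between the ages. It ran from 950 to 1425 normalized counts in young samples (median 1196) and from 738 to 1601 in aged samples (median 1116). Aged samples spread more widely, with a coefficient of variation of 29.4% against 15.6% in young samples. The highest Kcnj2 value of all 12 samples was that of aged 2, which had the lowest Kcnj12 value among the aged. The log2 fold change was -0.12 ± 0.17 (SE).

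Kir2.1 and Kir2.2 subunits can assemble with each other, and the other Kir2 genes, Kcnj4 and Kcnj14, did not pass the filter on low values. The make-up of the pair was compared per length of merged exons (2.75 kb for Kcnj12, 5.44 kb for Kcnj2). On this scale Kcnj12 made up 10.9 to 17.9% of the Kir2 transcripts in young samples and 38.3 to 67.6% in aged samples. The shares did not overlap, with means of 14.3 ± 2.82% and 57.4 ± 11.2% (SD, n = 6). Per kb, Kcnj12 was the larger part in each aged sample except aged 2. This order depends on the exon lengths used. Without the division by length, Kcnj2 had the higher aged mean, 1136 ± 334 normalized counts against 765 ± 150 (SD, n = 6). On that scale Kcnj12 was above Kcnj2 only in aged 6, at 779 against 738. The sum of both stood at 211 to 298 normalized counts per kb in young samples and at 419 to 562 in aged samples. Added over all 8 channels, the level was 6272 ± 220 per kb in young and 6085 ± 111 in aged samples, of which Kcnj12 was 0.580% and 4.57% on average.

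**Figure D2:**
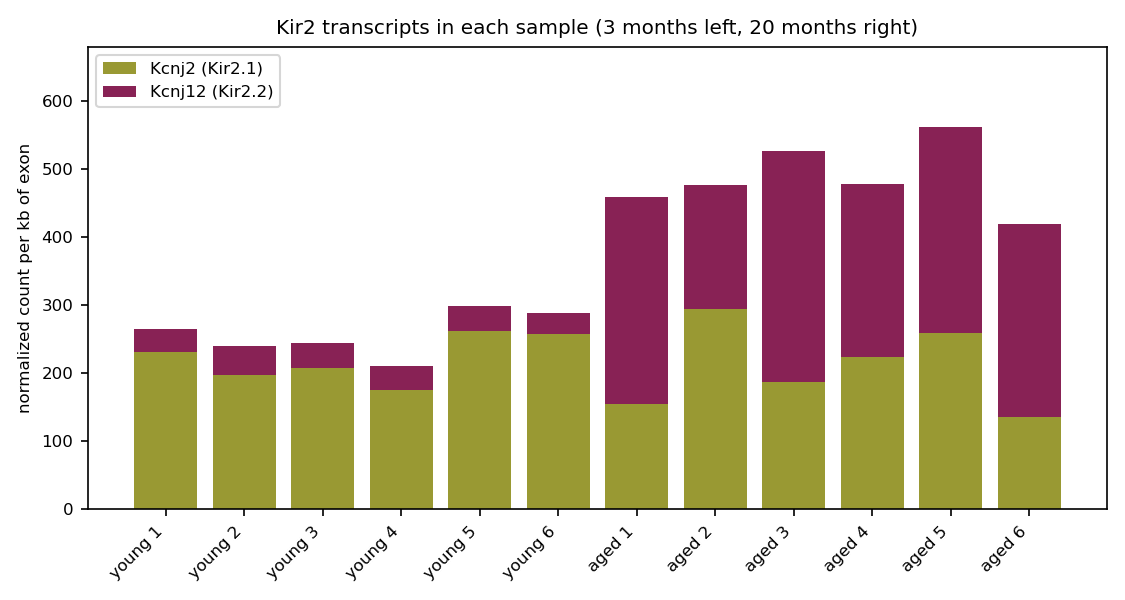
Normalized counts per kb of exon of Kcnj2 (olive) and Kcnj12 (purple), stacked, for each of the 12 samples. The bars of the aged samples are taller, 419 to 562 against 211 to 298, with Kcnj12 as the larger part per kb in 5 of the 6.

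Kcna3, which encodes Kv1.3, was the other channel that stood higher in aged microglia. Young samples ran from 50.2 in young 3 to 138 in young 2 (median 87.9) and aged samples from 179 in aged 5 to 417 in aged 1 (median 314). The ages did not overlap, though both spread by about the same share of their mean (coefficients of variation 32.7% and 32.1%). Means were 90.2 ± 29.5 and 307 ± 98.4 (SD, n = 6), a 3.37-fold difference (log2 1.75 ± 0.24, SE). It rests on 32 to 137 reads in young and 174 to 482 reads in aged samples with 1 library. Kcna3 is on chromosome 3 at 107036169 to 107038070, and an antisense gene with no exon overlap, Gm27008, lies across it; the table has no row of that name and the libraries do not mark the strand.

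T cells also use Kv1.3, so their defining genes were read in the same samples. Cd3d, Cd3e, Cd3g and Cd8a summed to 0 to 4.91 normalized counts in young and 0 to 10.3 in aged samples. They were at 0 in 10, 6, 5 and 8 of 12 samples. The list of border macrophages, relatives of microglia in the meninges and around vessels, summed to 210 to 379 in young and 179 to 671 in aged samples, with 0 of its 5 tested genes called (limma; 2 had an unadjusted p under 0.05, Cd163 and F13a1). The monocyte list summed to 58.9 to 121 in young and 110 to 156 in aged samples (medians 87.8 and 142), with 0 of 3 called (limma; 2 had an unadjusted p under 0.05, Ccr2 and Chil3). These 4 genes were named after their values were seen. The part of T cells, border macrophages and monocytes in the Kcna3 and Kcnj12 levels was not tested. The 10 microglial markers, Csf1r and Tmem119 among them, were high in every sample. They summed to 1759980 to 2016730 in young and 1607570 to 1824630 in aged samples, and 1 of them, Fcrls, was called lower (limma adjusted p = 0.00038). Of the marker lists of other cell types, 2 genes were called. Aldh1l1, an astrocyte gene, was at 19.4 ± 8.37 and 57.2 ± 26.5 normalized counts (SD, n = 6) and was called higher (limma adjusted p = 0.041). Cd79b, from the B cell list, was at 1108 ± 85.2 and 864 ± 72.0 and was called lower (limma adjusted p = 0.038), with no overlap of the ages for either. The astrocyte list summed to 5481 to 7020 in young and 5610 to 7608 in aged samples, and the B cell list to 982 to 1225 and 732 to 928. Nearly all of the astrocyte sum was Slc1a3, at 6091 ± 620 and 6351 ± 723, and nearly all of the B cell sum was Cd79b. The other astrocyte genes had means of at most 73.0 at either age, so the sum says little about them. The part of the astrocyte and B cell genes, and of the microglial sum, in the channel levels was not tested.

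Of the tandem-pore channels, Kcnk13 stood slightly lower in aged samples without overlap. Young samples ran from 5905 to 7413 (median 6132) and aged samples from 5131 to 5821 (median 5435). Young 1, which had the fewest reads of the 8 samples with 1 library, was well above the other young samples, and the gap between the lowest young and the highest aged sample was narrow. Means of 6335 ± 558 and 5468 ± 277 (SD, n = 6) give a log2 fold change of -0.21 ± 0.07 (SE), or 1.16-fold lower.

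Kcnk12 was lower on average and overlapped. It ran from 1070 to 1938 in young samples (median 1588) and from 681 to 1342 in aged samples (median 1097), with 3 of 6 aged samples below all young ones. The log2 fold change was -0.50 ± 0.16 (SE), or 1.42-fold lower. Kcnk6 was the most abundant of the 8 and had nearly the same mean at both ages, 12784 ± 1624 and 12759 ± 645 (SD, n = 6), with a log2 fold change of 0.01 ± 0.08 (SE). All aged Kcnk6 values, 11882 to 13816, lay within the young range of 10180 to 15035.

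Of the calcium-activated channels, Kcnn4 was lower in aged samples without overlap. Young samples ran from 180 to 256 normalized counts (median 204) and aged samples from 121 to 174 (median 148). The highest aged sample, aged 6, came close to the lowest young sample, young 3. Means were 213 ± 30.9 and 149 ± 18.9 (SD, n = 6), a log2 fold change of -0.51 ± 0.14 (SE), or 1.43-fold lower, from 83 to 333 reads in young and 133 to 163 in aged samples with 1 library. Kcnma1 overlapped, at 635 to 871 in young (median 733) and 481 to 714 in aged samples (median 649.5), with a log2 fold change of -0.23 ± 0.12 (SE).

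The 8 channels did not move together. The ages did not overlap in 4 of 8, with Kcnj12 and Kcna3 higher and Kcnk13 and Kcnn4 lower in aged samples, against 1.87% of the 11579 genes tested (1.16% higher and 0.717% lower); the channels were chosen with this contrast known and nothing is read from that share. By the limma test 1.73% of those genes were called in either direction (adjusted p under 0.05). In all, 3 log2 fold changes were above 0 and 5 below, with a median of -0.17, against 5850 above and 5729 below and a median of 0.0016 over all tested genes. All 8 passed the filter of at least 10 normalized counts in 6 samples. As these are bulk samples, fewer cells of a kind and less RNA per cell cannot be told apart.

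Per kb of exon, the young samples gave the order Kcnk6 (3080 ± 391), Kcnk13 (2036 ± 179), Kcnk12 (765 ± 169), Kcnj2 (222 ± 34.5), Kcna3 (47.4 ± 15.5), Kcnma1 (43.8 ± 6.54), Kcnn4 (41.7 ± 6.04) and Kcnj12 (36.3 ± 3.78; SD, n = 6). The first 4 did not overlap with the next in line, whereas each neighbouring pair among the last 4 did. In aged samples Kcnj12 moved from last to the fourth place, at 278 ± 54.6, and overlapped with Kcnj2 at 209 ± 61.3, which overlapped with Kcna3 at 161 ± 51.7. Kcnma1 (37.3 ± 5.44) and Kcnn4 (29.1 ± 3.70) came last. Exon lengths are those of GENCODE M21, which may not be the annotation behind the counts.

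**Figure D3:**
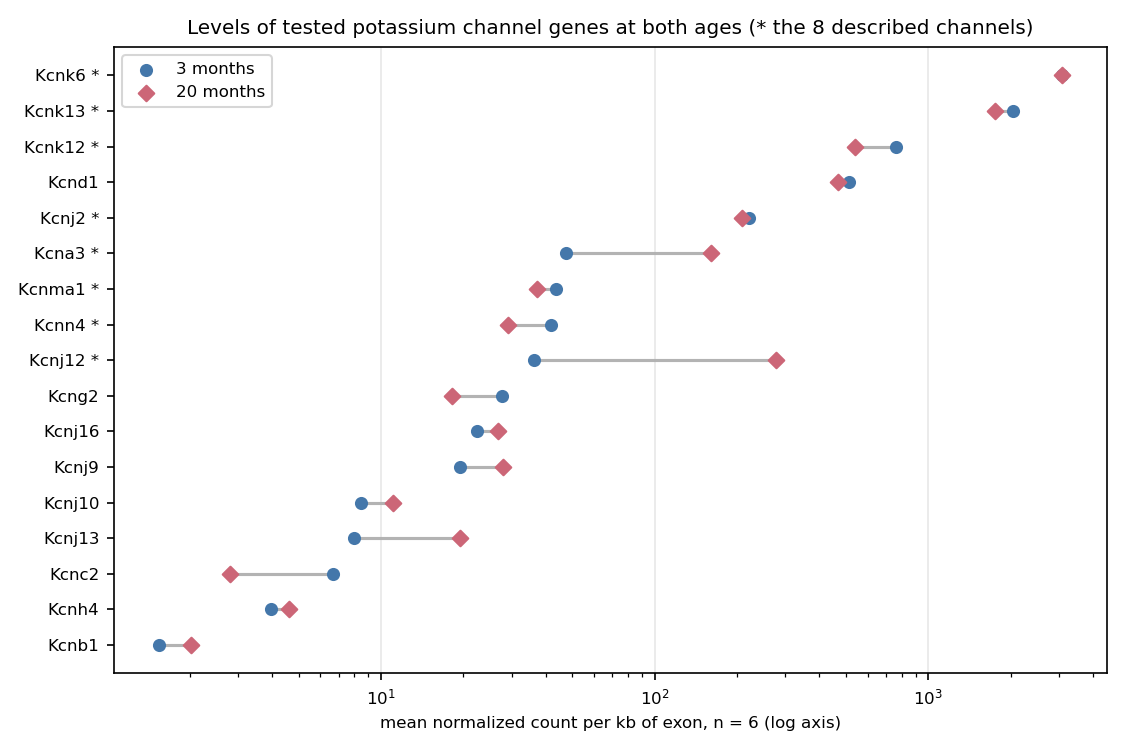
Mean normalized counts per kb of exon (log axis) of 17 tested potassium channel genes at 3 months (circles) and 20 months (diamonds), ordered by the young level; asterisks mark the 8 described. Kcnj12 runs from 36.3 to 278 and Kcna3 from 47.4 to 161, while Kcnk6 stays at 3080 and 3074.

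The rest of the channel family was read from lists of 69 further pore-forming genes, of which 9 passed the filter. In the limma fit, 1.27% of all tested genes were called higher and 0.458% lower in aged samples. Of the 9 channels, 0 were called in either direction and 3 had an unadjusted p under 0.05 (1253 of the 11579 genes tested had one). edgeR on the recovered reads of the 8 samples with 1 library also called 0. That fit uses fewer samples of the same data, so its 0 adds little. The median log2 fold change of the 9 channels was 0.33. Kcnd1, a voltage-gated channel of the A-type current, was the most abundant of them and the fourth channel overall per kb, at 2719 ± 392 and 2474 ± 319 normalized counts (limma adjusted p = 0.753). Kcnc2, a fast voltage-gated channel of neurons, stood at 47.5 ± 10.9 and 20.1 ± 15.6 (limma adjusted p = 0.107). It was called lower without aged 5 (limma adjusted p = 0.024). Kcng2, a silent modifier subunit chosen after its values were seen, stood at 82.7 ± 10.04 and 54.1 ± 18.7 (limma adjusted p = 0.181) and was called lower without aged 6 (0.032).

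Among inward rectifiers other than Kcnj12 and Kcnj2, 4 of 13 genes could be tested, and all 4 had a log2 fold change above 0 with 0 called (limma; 1 with an unadjusted p under 0.05). Kcnj9 was the one with the highest level, at 83.7 ± 18.2 and 120.0 ± 48.2 normalized counts (limma adjusted p = 0.530). Kcnj13, a channel of choroid plexus epithelium, had the smallest p, at 10.1 ± 8.00 and 24.8 ± 14.0 (limma adjusted p = 0.390). Choroid plexus markers summed to 266 to 1284 in young and 438 to 3525 in aged samples, and their part in the Kcnj13 values was not tested. No tandem-pore gene beyond the 3 described and no calcium- or sodium-activated gene beyond Kcnn4 and Kcnma1 passed the filter, out of 11 and 6 listed. Of 25 auxiliary subunits 5 were tested and 0 called (limma; 1 with an unadjusted p under 0.05). Kcnip3, a calcium-binding partner of A-type channels, was at 1084 ± 70.7 and 1291 ± 140 (limma adjusted p = 0.224).

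**Figure D4:**
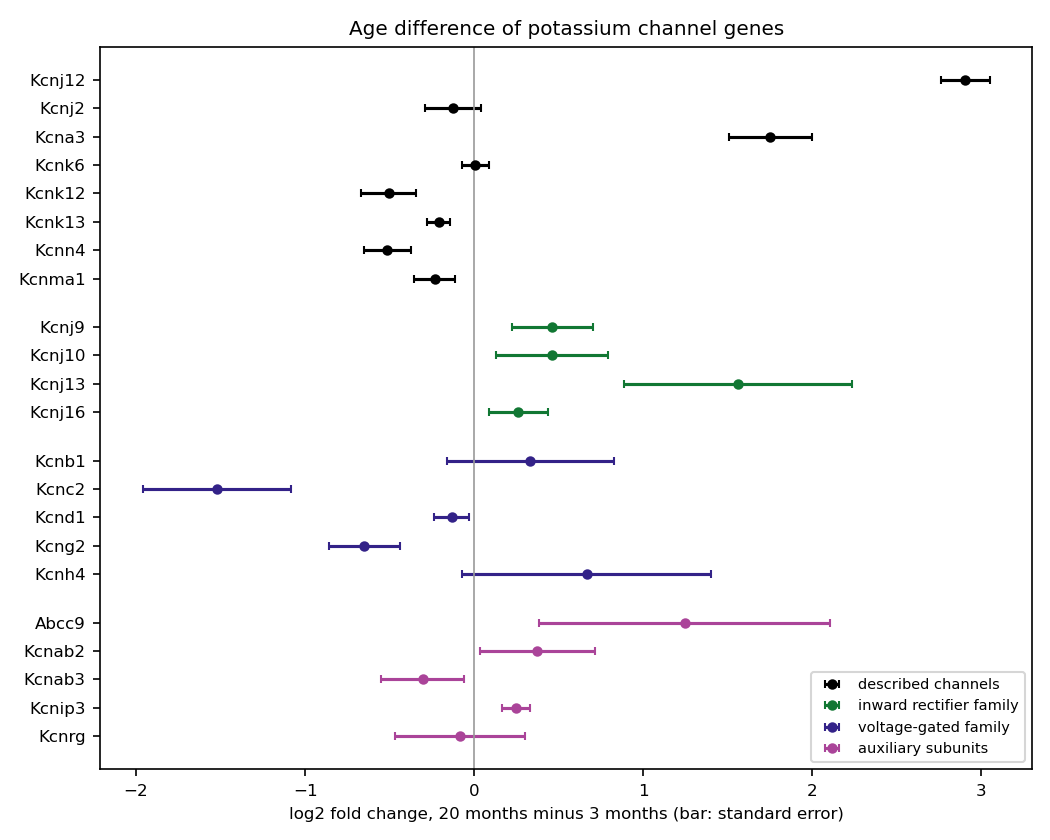
Log2 fold change, 20 months minus 3 months (horizontal axis), with its standard error, for the 8 channels (black) and for tested inward rectifiers, voltage-gated channels and auxiliary subunits (colours). Kcnj12 (2.90) and Kcna3 (1.75) stand to the right of 0 with short bars, whereas Kcnj13 and Abcc9 have wide ones.

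Lists of genes that act on Kir2 or with the leak channels held no called gene in the limma fit. Of 12 polyamine genes, 8 genes for phosphatidylinositol bisphosphate, the lipid Kir2 needs to open, and 12 anchoring partners, 1, 1 and 4 had an unadjusted p under 0.05. Over all 11579 tested genes, 1253 had one. Smox, spermine oxidase, had the smallest p of the polyamine genes, at 4949 ± 433 and 4328 ± 423 (limma adjusted p = 0.341), and Plcg2, a phospholipase that consumes the lipid, the smallest p of the lipid list, at 11171 ± 1213 and 12914 ± 1660 (0.411). Akap5, a kinase anchor, had the smallest p of the anchoring list, at 148 ± 21.2 and 97.2 ± 26.7 (limma adjusted p = 0.126). Cav1, Cav2 and Cask, named after their values were seen, were the others of that list with an unadjusted p under 0.05. They were higher in aged samples on average, with log2 fold changes of 0.82, 0.50 and 0.15. Of 10 genes of potassium efflux and the inflammasome 0 were called and 2 had an unadjusted p under 0.05. P2ry12, the receptor that activates THIK-1, was both the most abundant and the one with the smallest p, at 199938 ± 16068 and 176254 ± 13458 (limma adjusted p = 0.324). Pycard, the other of the 2 and named after its values were seen, was higher on average, at 4237 ± 248 and 4857 ± 526 (limma adjusted p = 0.325). The last list, 12 tested genes of other channels of the membrane potential, also had 0 called and 0 with an unadjusted p under 0.05; its most abundant gene, Clic1, was at 8946 ± 990 and 8880 ± 913 (limma adjusted p = 0.983), and Tmem175, a lysosomal potassium channel with the smallest p, at 3163 ± 287 and 2776 ± 520 (0.533). edgeR on the recovered reads of the 8 samples with 1 library, a part of the same data, called 0 in these lists too. Atp13a2, Pip4k2a and Flna had the highest levels of the polyamine, lipid and anchoring lists, with limma adjusted p of 0.975, 0.962 and 0.992.

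The genes next to Kcnj12 were read to see how far along chromosome 11 the difference extends. None of the 3 nearest tested genes on either side was called (limma, with 1 of the 6, Tnfrsf13b, at an unadjusted p under 0.05). edgeR on the recovered reads of the 8 samples with 1 library, a part of the same data, also called 0. Map2k3, a stress kinase whose gene ends 69.8 kb before Kcnj12, stood at 1980 ± 144 and 1968 ± 135 normalized counts (log2 fold change -0.01 ± 0.07, SE; limma adjusted p = 0.983). Tnfrsf13b, a receptor for B cell survival factors that begins 55.6 kb after it, stood at 1240 ± 193 and 1039 ± 59.7 (limma adjusted p = 0.325). Map2k3os, Tmem11, Usp22 and Aldh3a2 had log2 fold changes of -0.24, -0.03, -0.08 and 0.11 (limma adjusted p = 0.894, 0.958, 0.872 and 0.741).

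**Figure D5:**
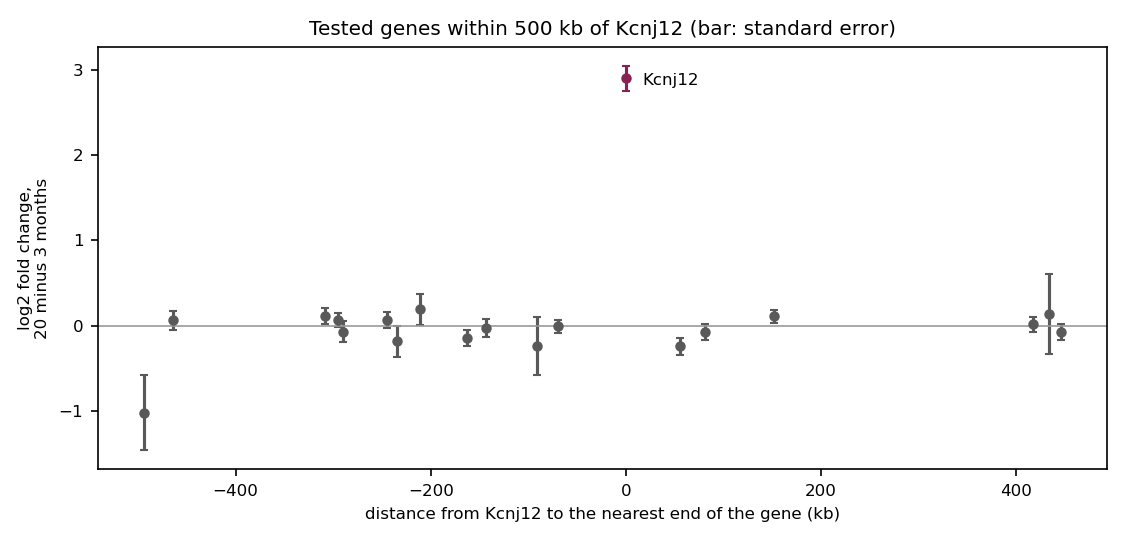
Log2 fold change between the ages, with its standard error, of the tested genes within 500 kb of Kcnj12 against their distance from it in kb. Kcnj12, at 2.90, stands alone above genes that lie near 0; Myo15, at -494 kb, is at -1.02 with a wide bar of 0.44.

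The 5 genes whose pattern was most like that of Kcnj12, by Pearson's r of log2 values over the 12 samples among 10806 named genes, were Dlg5 (0.985), Pde2a (0.981), Ildr2 (0.976), Pcbp3 (0.972) and Zkscan2 (0.972). The samples share the age split, which enters each r. Dlg5, a scaffold protein of cell junctions, stood at 24.1 ± 7.10 and 398 ± 54.7 normalized counts (SD, n = 6). Pde2a, a phosphodiesterase that degrades cyclic nucleotides, stood at 3253 ± 428 and 8801 ± 1342 normalized counts (SD, n = 6). Kcna3 came 44th with 0.899. When the age means were subtracted, the most like genes were Chst1 (0.874), Pacsin3 (0.856), Ppm1j (0.851), Chaf1a (0.847) and Ssrp1 (0.840). Of these, Pacsin3 was low, at 27.3 ± 7.62 in young and 10.3 ± 5.79 normalized counts in aged samples (SD, n = 6). Ppm1j was also low, at 34.0 ± 9.23 and 26.3 ± 16.6. On the same measure Kcna3 was at place 2288 with 0.25. Kcnj2 then had an r of -0.58 with Kcnj12. These values describe 12 points and carry no test.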

How the data were processed

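Values are normalized counts, a deposited signal per gene that is each library's read count divided by a size factor, with 1 column for each of 12 samples. Libraries (SmartSeq v4, Nextera XT) do not mark strand. The series' design text names bcl2fastq for demultiplexing, fastx_trimmer, the aligner STAR, samtools for counting, and DESeq2 at standard settings for the normalization. The submitters' processing notes name mm10. Tool versions: not given in the sources used here, nor is the annotation. Reads were recovered in the 8 samples with a single library, where 100% of values above 0 lay within 0.1 read of a whole number: 11.4 M in young 1 and 23.4 to 47.3 M in the others. The 4 samples with 2 libraries have 1 column each, treated as 1 sample.

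Genes with at least 10 normalized counts in 6 of 12 samples were tested (11579). The test was limma 3.58.1 (R 4.3.3) on log2(normalized count + 1), with a mean-variance trend, two-sided, adjusted by Benjamini-Hochberg over all tested genes at 0.05. The pseudocount understates changes of low genes. In total 147 genes were called higher and 53 lower; edgeR 4.0.16 on the recovered reads of the 8 samples called 76 and 15. The fit was tested on simulated data. There it recovered 26 of 49 genes changed 1.5-fold, 38 of 50 changed 2-fold and 46 of 49 changed 4-fold. A gene that was not called may thus still differ between the ages. The 8 channels and the lists were chosen with earlier results of these data known; the list of pumps and cotransporters is not reported here. The text names the 8 channels; of each list the called genes, the one with the smallest p and the most abundant; the 3 nearest tested genes on each side of Kcnj12; and the 5 genes most like it by each measure. Other named genes are said to be chosen after their values were seen. Alternatives were other pseudocounts, filters, scalings and variance models, a replicate block, subsets of samples and edgeR; without aged 5 and 6 and edgeR were chosen after seeing the data.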

Additional observations from a re-analysis of the deposited data

Results flagged for a closer look

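Of 82 groups of 6 samples examined for the genes named, 3 held a sample far from the others, where chance gives about 1 in 20. Kcnk13 stood at 7413 normalized counts in young 1, against 6428 in the next young sample and a median of 6132. Akap5 stood at 106 in young 3, against 151 in the next and a median of 152. Pcbp3 stood at 71.2 in young 2, against 39.3 in the next and a median of 32.6. Leaving out young 1 brought the log2 fold change of Kcnk13 from -0.21 to -0.16.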

How the results depend on the processing

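Over 24 alternatives the log2 fold change of each channel moved by less than the SD of log2 values among samples of an age. This margin is wide, and leaving out 1 sample can hardly pass it. The other filters, variance models and the replicate block cannot move the estimate. Kcnj12 lay between 2.84 and 3.02, Kcna3 between 1.598 and 2.01, Kcnn4 between -0.56 and -0.44 and Kcnk12 between -0.60 and -0.38. Kcnk13 lay between -0.23 and -0.16, Kcnma1 between -0.28 and -0.12 and Kcnj2 between -0.23 and -0.01. Kcnk6 lay between -0.06 and 0.05 and kept its sign in 18. Among the listed genes 0 were called lower, but leaving out 1 sample gave 0 to 1 and leaving out aged 5 and 6 gave 2, Kcnc2 and Kcng2. Over all genes, 147 were called higher and 53 lower. Leaving out 1 sample gave 101 to 174 higher and 27 to 60 lower; the number lower was 34, 32, 35, 27 and 30 without young 1, 2, 4, 5 and 6, and 35 without aged 2. Limma on the 8 samples with 1 library gave 67 and 11, and edgeR on their reads 76 and 15, with fewer samples. With the sample number as a replicate block 115 and 30 were called; the cause was not tested. Samples with the same number correlated at -0.12 to 0.11 in their deviations, and 1 of 6 young samples matched its own number best. What the number stands for is not stated, and a shared batch was not tested. Depth limits the precision of the lowest values, such as 32 reads of Kcna3 and 38 of Kcnj12 in young 1; intervals on reads would cover counting error only.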
